A study of Mus musculus with 9 samples.

Results

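The TALE homeobox genes Meis1, Meis2, Meis3, Pbx2, Pbx3, Pknox1 and Pknox2 were taken as a list of 7 named genes, out of 37620 genes in the counts, and each was matched to 1 Ensembl identifier through the mouse gene annotation. All 7 passed the filter on low counts, with a scaled read count of 1 CPM or more in 1 sample or more (CPM are a gene's reads scaled to a common library total, here with TMM normalization between samples). They were followed in ribosome-associated RNA of parvalbumin-expressing inhibitory neurons (PV INs) from hippocampal CA3/CA2, where the study asked which genes accompany increased mossy fiber input. All mice were PV-Cre; Rpl22 HA/HA (written PV-Cre:Rpl22HA f/f in the study's methods), so that the hemagglutinin-tagged ribosomal protein L22 depended on Cre made under the parvalbumin gene. Lentivirus was injected into the dentate gyrus (DG) of mice aged 2 months, carrying either a non-target shRNA (shNT, 5 samples) or an shRNA against Ablim3 (shRNA, 4 samples), and CA2/CA3 was collected 2 weeks later. Each sample was a pool of 6 mice of both sexes, so mice were not measured one by one, and the p-values below measure the spread between pools.

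TALE proteins are homeodomain transcription factors whose homeodomain carries extra residues in the loop between its first helices. MEIS and PKNOX (also called PREP) proteins bind PBX proteins, and the pair binds DNA together, often beside a HOX protein or another factor. PBX proteins depend on a MEIS or PKNOX partner to stay in the nucleus, so the balance between the families matters for what any member does. Meis2 is known in the forebrain for its role in GABAergic neurons of the ventral telencephalon, where it works with DLX factors.

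All of these genes carry a homeobox, shown here for the 3 MEIS genes and for Pknox1 and Pbx2, 1 from each partner family. It is shown because a read that fitted more than 1 of the genes would have been lost from the counts. Each line is the coding strand of 63 codons (189 bases, 5′ to 3′) from a GENCODE coding transcript of the mm9 build, and the 18 bases in capitals encode the core of the DNA-recognition helix.
Meis1: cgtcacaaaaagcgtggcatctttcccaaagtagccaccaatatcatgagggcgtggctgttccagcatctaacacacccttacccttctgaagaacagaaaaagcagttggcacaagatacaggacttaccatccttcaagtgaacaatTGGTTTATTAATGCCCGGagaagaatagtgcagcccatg
Meis2: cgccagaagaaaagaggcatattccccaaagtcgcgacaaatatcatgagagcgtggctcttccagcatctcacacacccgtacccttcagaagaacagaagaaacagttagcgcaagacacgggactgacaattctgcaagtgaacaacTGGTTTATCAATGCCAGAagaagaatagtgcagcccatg
Meis3: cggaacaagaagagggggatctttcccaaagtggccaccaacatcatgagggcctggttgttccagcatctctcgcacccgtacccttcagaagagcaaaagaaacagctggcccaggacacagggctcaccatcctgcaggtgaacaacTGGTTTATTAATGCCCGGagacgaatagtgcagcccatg
Pknox1: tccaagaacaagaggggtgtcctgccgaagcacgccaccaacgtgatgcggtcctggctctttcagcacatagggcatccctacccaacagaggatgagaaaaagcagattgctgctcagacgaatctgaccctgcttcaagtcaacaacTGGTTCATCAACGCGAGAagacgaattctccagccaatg
Pbx2: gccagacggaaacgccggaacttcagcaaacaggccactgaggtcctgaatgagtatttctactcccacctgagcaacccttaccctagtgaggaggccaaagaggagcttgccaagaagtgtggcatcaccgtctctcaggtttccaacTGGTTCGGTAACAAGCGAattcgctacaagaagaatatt
Over these 189 bases Meis2 was identical to Meis1 at 84.1%, to Meis3 at 82.0%, to Pknox2 at 71.4%, to Pknox1 at 66.1%, to Pbx3 at 50.8% and to Pbx2 at 48.1%. The 18 capital bases were the same in Meis1 and Meis3 and differed from those of Meis2 at 3 positions. The longest run of identical bases between Meis2 and another member was 21, and 0 of the 6609 words of 50 bases (the read length) in the coding transcripts of Meis2 occurred in another member. The same count was 0 for each of the other 6 genes, so a 50-base read without mismatches from a coding transcript points to a single member. Exons of Meis1 share 12.1% of their bases with Gm16140 on the opposite strand and exons of Pbx2 share 6.24% with Gpsm3, and counting ignored strand, so these counts may hold or lack some reads of the neighbour.

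Gene counts ran from 18281719 to 34578837 per sample. The labels call the tissue brain, and all 12 markers fixed for PV INs were present, among them Pvalb (310 to 1375 CPM) and Gad1 (1229 to 3557 CPM). Ablim3, the target of the shRNA in DG, had 12.1 to 22.6 CPM in the shNT samples and 13.7 to 21.7 CPM in the shRNA samples, and in CA3/CA2 RNA it does not check the knockdown. Reads outside annotated exons made up 9.76% to 18.6% of uniquely aligned reads in the shNT samples and 12.4% to 27.2% in the shRNA samples. shRNA replicate 4 stood apart, with the largest share outside exons, the lowest summed level of the PV IN markers (4478 CPM, against 8765 to 14323 CPM in the other 8 samples) and the highest of the 12 astrocyte markers (5774 CPM, against 1116 to 1723 CPM). In such RNA, fewer cells of a type and less RNA per cell cannot be told apart. The sample names form a set of 6 (YTa31) and a set of 3 (YTa32), and what the sets mark is not stated.

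In the ribosome-associated RNA of the control samples the family was led by Meis3 and Pknox2, while Meis2 and Meis1 stood last. No sample of total CA3/CA2 RNA is in the set. Genes of other cell types were read too, with shNT means of 543 CPM for Camk2a and 693 CPM for Mbp, beside 3030 CPM for Gad1. Low levels such as those of Meis2 and Meis1 can therefore not be assigned to PV INs. Levels of different genes are compared per exon length, as TPM, which divide a gene's reads by its exon length and scale them to a common total over the genes tested. Meis3 averaged 79.2 ± 9.90 TPM over the shNT pools (mean ± SD, n = 5). Pknox2 followed with 45.8 ± 18.9 TPM and Pbx2 with 24.2 ± 0.594 TPM. These 3 genes did not overlap one another over the 5 shNT samples. Pknox1 had 4.94 ± 1.51 TPM, Pbx3 3.15 ± 0.852 TPM and Meis2 1.78 ± 0.798 TPM, and neighbours in this stretch of the order overlapped in range, although the higher one was above the lower one in 5 of 5 samples. Meis1 was lowest, with 0.237 ± 0.0833 TPM, below every Meis2 value.

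The order was nearly the same in the shRNA samples, except that Meis2 stood above Pbx3. Meis3 averaged 85.0 ± 25.7 TPM over the shRNA pools (mean ± SD, n = 4), overlapping Pknox2 and above it in 3 of 4 samples. Pknox2 had 54.1 ± 15.7 TPM, Pbx2 22.3 ± 3.64 TPM and Pknox1 9.30 ± 4.10 TPM. Meis2 had 4.32 ± 2.21 TPM and Pbx3 3.10 ± 0.376 TPM, and Meis2 was the higher of the pair in 3 of 4 samples, with overlapping ranges. Meis1 again came last, with 0.456 ± 0.167 TPM.

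**Figure D1:**
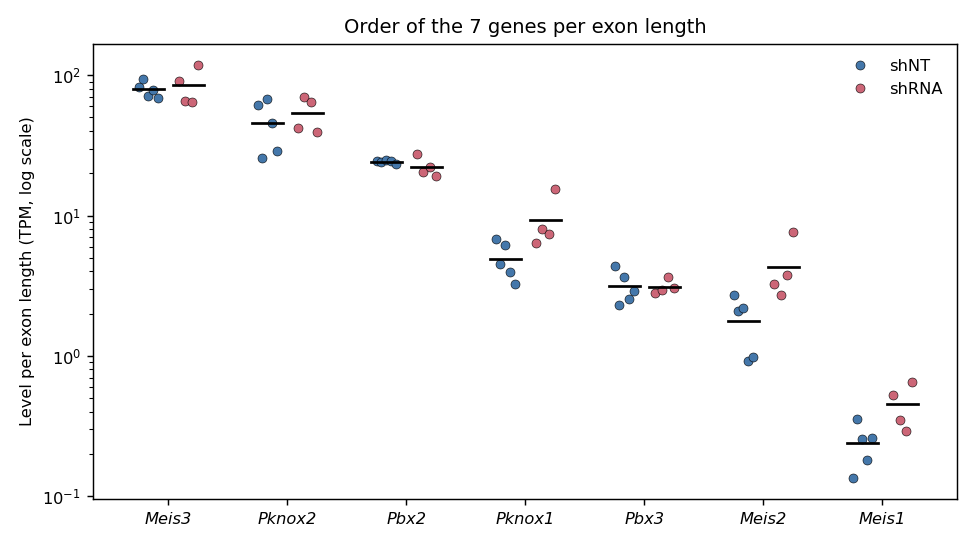
Level per exon length (TPM, log axis) of the 7 genes in each shNT (blue) and shRNA (red) sample, with a bar at each group mean. Meis3 lies near 79.2 TPM in the shNT samples and Meis1 near 0.237 TPM, and Meis2 moves from 1.78 to 4.32 TPM between the groups.

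Set within the MEIS genes alone, Meis2 held a small share of the family's level, and a larger one with the Ablim3 shRNA. Its share of the summed MEIS level in TPM was 3.21%, 2.16%, 2.98%, 1.15% and 1.39% in shNT replicates 1 to 5 and 3.43%, 3.98%, 5.45% and 5.94% in shRNA replicates 1 to 4. The groups did not overlap, with a narrow gap between shRNA replicate 1 and shNT replicate 1. The Meis1 share did not overlap either, at 0.158% to 0.37% in the shNT samples and 0.424% to 0.562% in the shRNA samples, so this is not particular to Meis2. Meis3 held 96.6% to 98.6% of the MEIS level in the shNT samples and 93.5% to 96.0% in the shRNA samples. The Meis2 and Meis1 shares therefore mostly restate their levels relative to Meis3. By log2 ratio to Meis3, 14.1% of all other genes lay higher in the shRNA samples without overlap. Pknox2 held 85.1% to 92.0% of the PKNOX level in the shNT samples and 71.8% to 89.8% in the shRNA samples, lowest in shRNA replicate 4. These shares were chosen after the values were seen, so no test of them is given.

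Between the groups, 0 of the 7 members passed the test used for all 15069 genes, edgeR's quasi-likelihood test with a Benjamini-Hochberg FDR under 0.05 and a minimum change of 1.5-fold. The background was low in both directions, with 1.74% of genes called higher and 0.0133% called lower in the shRNA samples, so a count of 0 among 7 genes is near it. With an unadjusted p under 0.05 there were 2 members, Meis2 and Pknox1, both higher, against 20.7% of all genes higher and 13.4% lower. The same 2 members had an FDR under 0.1, against 14.7% of all genes higher and 8.58% lower. The median log2 fold change of the members was 0.03, against 0.11 over all genes tested, and 4 of the 7 were positive and 3 negative, against 57.9% and 42.1% of all genes. In 0 of the 7 did the CPM values of the groups fail to overlap, against 8.97% of genes that lay higher and 6.68% that lay lower without overlap. With edgeR's likelihood ratio test, its exact test, DESeq2 or limma voom, the count of members called was 1 each time, Meis2, higher with the shRNA. These tests called 11.2%, 11%, 10.1% and 15.3% of all genes higher and 3.6%, 3.54%, 5.6% and 4.1% lower, so 1 of 7 is near the background. With voom, Meis3 (FDR = 0.0158), Pknox1 (FDR = 0.0223) and Pbx2 (FDR = 0.0269) also had an FDR under 0.05 but missed the 1.5-fold minimum, at log2 fold changes of -0.38, 0.53 and -0.33.

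Meis2 (ENSMUSG00000027210, mm9 chromosome 2 from 115688800 to 115891575, minus strand) measured 10.5, 8.31, 8.95, 4.09 and 4.74 CPM across the 5 shNT pools and 12.1, 10.3, 14.1 and 21.8 CPM across the 4 shRNA pools, in the order of their replicate numbers. Only shRNA replicate 2 fell inside the range of the shNT samples, just under shNT replicate 1, and shRNA replicate 4 was the highest. Meis2 averaged 7.31 ± 2.77 CPM with shNT (SD, n = 5) against 14.6 ± 5.05 CPM with the Ablim3 shRNA (SD, n = 4). The log2 fold change was 0.99 (standard error 0.31, 95% interval 0.31 to 1.67, FDR = 0.0700, edgeR quasi-likelihood test), and 11.6% of all genes had an increase at least as large. On its log2 level, exact permutation of the samples gave a two-sided p = 0.0238. The study had picked Meis2 as higher from these same samples, so these tests are not independent of that choice. By other methods, the study reports higher Meis2 by qRT-PCR with the Ablim3 shRNA. It also reports more Meis2 after social experience by in situ hybridization in wild-type mice.

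The Meis2 difference was uneven between the sets of sample names. Among the YTa31 names it was 9.24 CPM in 3 shNT samples and 12.2 CPM in 3 shRNA samples, a difference of 0.39 on the log2 scale (exact permutation test, p = 0.2, where 3 against 3 cannot go below 0.1). Among the YTa32 names, 2 shNT samples averaged 4.41 CPM and the single shRNA sample, replicate 4, had 21.8 CPM, a difference of 2.29 on the log2 scale with no test. The log2 fold change over all samples was 0.71 without shRNA replicate 4 (FDR = 0.166) and 1.16 without shNT replicate 1 (FDR = 0.0486, edgeR quasi-likelihood test), the only sample without which the gene was called. Genes with long exons were higher in the shRNA samples as a whole: at the 11.9 kb of exon of Meis2 the trend over all genes was 0.57, which leaves 0.42 of its 0.99.

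**Figure D2:**
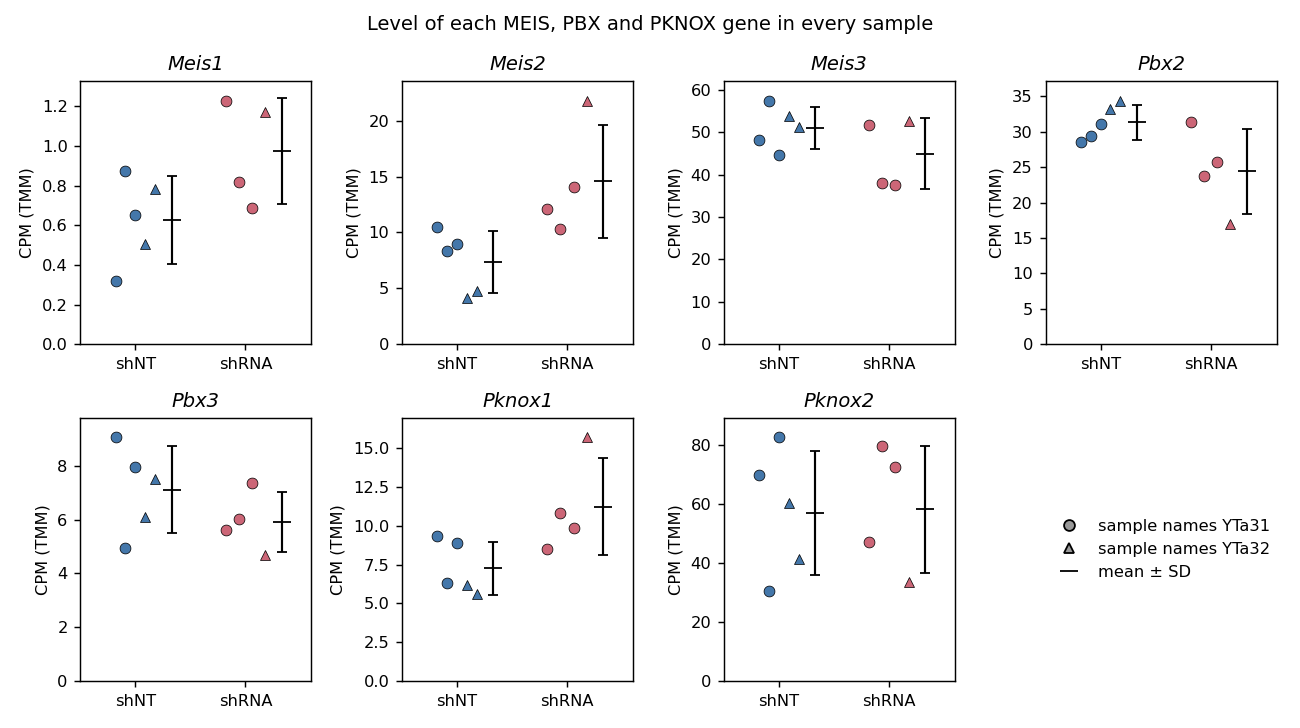
CPM of each of the 7 genes in every sample, scaled with TMM, with shNT in blue, shRNA in red, mean ± SD beside the points, and circles and triangles for the YTa31 and YTa32 sample names. For Meis2 the triangles hold both the lowest values (4.09 and 4.74 CPM) and the highest (21.8 CPM).

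The closest paralogs of Meis2 did not pass either. Meis3 (ENSMUSG00000041420, chromosome 7 from 16760729 to 16771853) measured 48.2, 57.5, 44.6, 53.8 and 51.3 CPM in the shNT pools against 51.7, 38.1, 37.5 and 52.6 CPM in the shRNA pools. The shRNA samples fell into a pair within the shNT range and a pair below it. Its log2 fold change was -0.18 (standard error 0.15, 95% interval -0.51 to 0.14, FDR = 0.387, edgeR quasi-likelihood test), and on the TPM scale its mean was higher in the shRNA samples, so its direction depends on the scale. Meis1 (ENSMUSG00000020160, chromosome 11 from 18780433 to 18918961) had few reads, with 9 to 25 reads per shNT sample and 13 to 37 per shRNA sample. That gave 0.320, 0.872, 0.652, 0.504 and 0.784 CPM against 1.23, 0.817, 0.686 and 1.17 CPM, with overlapping groups. Its log2 fold change was 0.64 with a wide 95% interval of -0.21 to 1.49 (FDR = 0.251, edgeR quasi-likelihood test).

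The PKNOX genes, which take the place of MEIS proteins in complexes with PBX, did not pass, and their shares of the PKNOX level overlapped between the groups. Pknox1 (ENSMUSG00000006705, chromosome 17 from 31701718 to 31744638) had 9.32, 6.33, 8.88, 6.20 and 5.58 CPM in the shNT samples and 8.51, 10.8, 9.86 and 15.7 CPM in the shRNA samples. Of the shRNA samples, 3 of 4 lay above the shNT range and replicate 1 lay inside it. Pknox1 averaged 7.26 ± 1.71 CPM with shNT (SD, n = 5) against 11.2 ± 3.13 CPM with the Ablim3 shRNA (SD, n = 4). The log2 fold change of 0.62 (standard error 0.23, 95% interval 0.12 to 1.13, FDR = 0.0946, edgeR quasi-likelihood test) did not pass, and exact permutation of its log2 level gave p = 0.0476. As for Meis2, the difference was smaller among the YTa31 names (0.26 on the log2 scale, exact permutation test, p = 0.3) than among the YTa32 names (1.40, a single shRNA sample and no test).

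Pknox2 (ENSMUSG00000035934, chromosome 9 from 36698570 to 36954899) varied more within the groups than between them. It had 69.8, 30.4, 82.5, 60.3 and 41.4 CPM in the shNT samples and 47.0, 79.5, 72.5 and 33.6 CPM in the shRNA samples. The lowest value of each group came from the sample with the most reads outside exons in that group, shNT replicate 2 (18.6%) and shRNA replicate 4 (27.2%). The log2 fold change was 0.03 (95% interval -0.66 to 0.72, FDR = 0.954, edgeR quasi-likelihood test), and its sign was negative under 12 alternatives. It was 0.57 with the percent of reads outside exons added to the fit (FDR = 0.117, edgeR quasi-likelihood test) and -0.44 with the trend on gene length removed.

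Both PBX genes had lower means in the shRNA samples, and neither passed edgeR's quasi-likelihood test. Pbx2 (ENSMUSG00000034673, chromosome 17 from 34728211 to 34734345), a broadly expressed partner of MEIS and PKNOX proteins, had 28.6, 29.4, 31.1, 33.2 and 34.4 CPM with shNT and 31.4, 23.7, 25.7 and 16.9 CPM with the Ablim3 shRNA. The shNT samples were tightly grouped, and 3 of the 4 shRNA samples lay below all of them. Its log2 fold change was -0.36 (standard error 0.17, 95% interval -0.74 to 0.02, FDR = 0.161, edgeR quasi-likelihood test), with p = 0.0397 in an exact permutation test. Among the YTa31 names its groups overlapped, with a difference of -0.15 on the log2 scale (exact permutation test, p = 0.4), and among the YTa32 names the single shRNA sample lay lower by a difference of -0.996. Its log2 fold change was -0.24 without shRNA replicate 4 and -0.56 without shRNA replicate 1. Pbx3 (ENSMUSG00000038718, chromosome 2 from 34026977 to 34228660) had 9.07, 4.96, 7.96, 6.10 and 7.53 CPM against 5.62, 6.01, 7.38 and 4.69 CPM, almost wholly overlapping. Its log2 fold change was -0.27 (95% interval -0.76 to 0.22, FDR = 0.400, edgeR quasi-likelihood test).

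Meis2 was then set against each other member inside the same sample, as the log2 ratio of their CPM, a measure in which the scaling factor of a sample cancels, apart from a small prior count added to each value. The ratio was higher in the shRNA samples relative to Meis3, Pbx2 and Pbx3, without overlap between the groups, and overlapped relative to Meis1, Pknox1 and Pknox2. Relative to Meis3 the log2 ratio was -2.20, -2.78, -2.30, -3.69 and -3.42 in shNT replicates 1 to 5 and -2.09, -1.87, -1.40 and -1.27 in shRNA replicates 1 to 4. The groups came closest at shRNA replicate 1 and shNT replicate 1. The mean ratios differed by 1.22 (-2.88 ± 0.66, SD, n = 5, against -1.66 ± 0.39, SD, n = 4), with p = 0.0238 and p = 0.0476 after Benjamini-Hochberg adjustment over the 6 ratios (exact two-sided permutation test of the group labels). Meis2 is in all 6 ratios, and the study had picked it as higher from these same samples. The adjustment does not cover that choice, so the p-values of the ratios, here and below, are no independent support for a Meis2 change.

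Relative to Pbx2 the ratios ran from -3.0 to -1.45 in the shNT samples and from -1.37 to 0.36 in the shRNA samples, a difference of 1.41 (exact permutation test, p = 0.0159, adjusted p = 0.0476). Meis2 counts exceeded Pbx2 counts only in shRNA replicate 4. Relative to Pbx3 the ratios ran from -0.66 to 0.74 and from 0.78 to 2.20, a difference of 1.27 (exact permutation test, p = 0.0159, adjusted p = 0.0476). The same lack of overlap, in the same direction, was found for 14.1% of all other genes relative to Meis3, 14.2% relative to Pbx2 and 12.8% relative to Pbx3, so it is not particular to Meis2. It was found for 0.0664% of other genes relative to Meis1, 0.657% relative to Pknox1 and 1.49% relative to Pknox2.

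Against the other members the ratio of Meis2 did not pass. The difference was 0.41 relative to Pknox1 (exact permutation test, p = 0.111, adjusted p = 0.152), 0.98 relative to Pknox2 (exact permutation test, p = 0.127, adjusted p = 0.152) and 0.41 relative to Meis1 (exact permutation test, p = 0.421). Among the YTa31 names alone, the differences were 0.64 relative to Meis3, 0.54 relative to Pbx2 and 0.56 relative to Pbx3, each at p = 0.1, the smallest that the exact permutation test of 3 against 3 samples can give, and that relative to Meis1 was -0.18. Without shRNA replicate 4 the differences were 1.04 relative to Pbx2 and 0.96 relative to Pbx3, both at p = 0.0536 (exact permutation test), and 1.09 relative to Meis3 (p = 0.0357). Without shRNA replicate 3 that relative to Pbx2 also missed the threshold, at 1.45 (exact permutation test, p = 0.0536). With the trend on exon length removed, a choice made after seeing the data, the difference relative to Meis3, whose exons sum to 1.82 kb, was 0.50, and that relative to Pknox1 was 0.00.

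**Figure D3:**
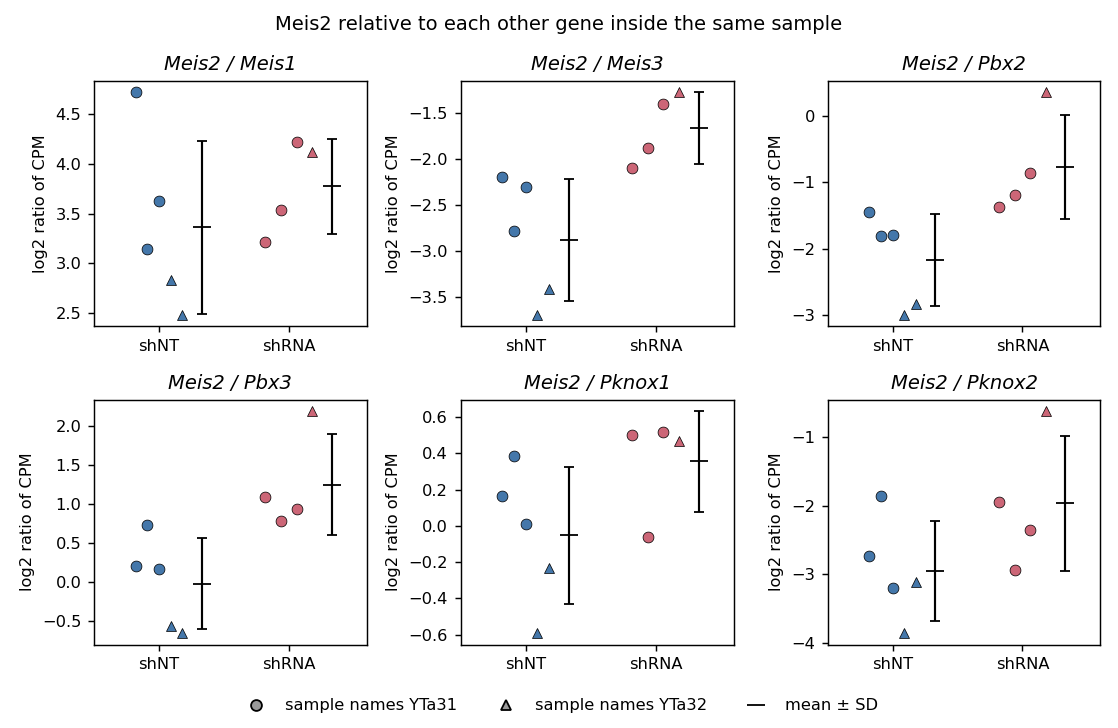
Log2 ratio of Meis2 CPM to the CPM of each other member inside the same sample, with shNT in blue, shRNA in red and mean ± SD beside the points. The groups separate relative to Meis3 (difference 1.22), Pbx2 (1.41) and Pbx3 (1.27) and overlap relative to Meis1, Pknox1 and Pknox2.

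Of the further TALE genes described here, 0 were called by edgeR's quasi-likelihood test (before adjustment, p was under 0.05 for 0 with a higher and 2 with a lower mean). By the same test, 1.74% of all genes were called higher and 0.0133% lower. Before adjustment, p was under 0.05 for 20.7% of all genes with a higher and 13.4% with a lower mean. Of 10 further TALE genes on a fixed list, 6 passed the filter and 4 Iroquois genes did not (Irx1, Irx2, Irx4 and Irx6, with at most 6 reads in any sample). Pbx4 had 12.3, 18.9, 12, 16.4 and 20.1 CPM with shNT and 12.7, 10.2, 9.81 and 8.25 CPM with the shRNA (log2 fold change -0.63, FDR = 0.0736), the smallest FDR on this list. Mkx, a tendon regulator that is also present in these samples, averaged 32.3 ± 4.72 CPM with shNT against 23.9 ± 5.72 CPM with the Ablim3 shRNA (FDR = 0.135, edgeR quasi-likelihood test). Tgif1, Tgif2, Irx3 and Irx5 were at 0.0504 to 1.43 CPM in the samples other than shRNA replicate 4, where all 4 genes had their highest value (3.92, 1.58, 1.26 and 1.94 CPM).

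Genes whose products work with MEIS and PBX proteins, or hold them in place, were counted from a second fixed list of 13. By edgeR's quasi-likelihood test 0 were called (before adjustment, p was under 0.05 for 8 with a higher and 1 with a lower mean). Of the 13, 7 had an FDR between 0.05 and 0.1 with a higher mean in the shRNA samples, and 4 did not overlap between the groups, each higher in the shRNA samples. Of all 15069 genes, 1948 had an FDR between 0.05 and 0.1 with a higher level, and 14.7% had any FDR under 0.1 with a higher level. Before adjustment, 20.7% were higher and 13.4% lower with p under 0.05, and 8.97% lay higher and 6.68% lower without overlap. The list was chosen with earlier results of these data known. The median log2 fold change of the 13 was 0.67, against 0.11 over all genes tested. Genes with long exons were higher in the shRNA samples as a whole, by a trend of 0.57 at 11.9 kb of exon. That trend was not removed from this list, and its part in the median was not tested. Tle4, a Groucho corepressor that competes with MEIS2 for the factor OTX2, had 29.3, 22.4, 27.5, 24.8 and 21.2 CPM in the shNT samples and 29.7, 37.7, 41.2 and 50.5 CPM in the shRNA samples. These did not overlap, by a small margin between shNT replicate 1 and shRNA replicate 1 (log2 fold change 0.67, standard error 0.17, FDR = 0.0589, edgeR quasi-likelihood test). Xpo1, the exportin that carries PBX out of the nucleus, had 25.5 to 47.1 CPM and 55.3 to 80.1 CPM (log2 fold change 0.76, FDR = 0.0645). The coactivator gene Crebbp had 28.2 to 50.4 CPM and 54.1 to 64.1 CPM (log2 fold change 0.61, FDR = 0.0630), while the corepressor gene Ncor1 had 165 to 336 CPM and 392 to 1035 CPM (log2 fold change 1.41, FDR = 0.0517). The log2 fold changes of Hdac1 (0.10, FDR = 0.676) and of Crbn, whose product can target MEIS2 for degradation (-0.07, FDR = 0.795), were near 0 (edgeR quasi-likelihood test).

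The largest fold changes on this list were those of the non-muscle myosins that can retain PBX in the cytoplasm. Myh9 had 103, 39.8, 27.8, 13.5 and 13.2 CPM in the shNT samples and 371, 196, 328 and 94.8 CPM in the shRNA samples, where only shRNA replicate 4 fell under the highest shNT sample (log2 fold change 2.65, standard error 0.61, FDR = 0.0503). Myh10 had 88.7 to 401 CPM and 194 to 1428 CPM (log2 fold change 2.29, FDR = 0.0544, edgeR quasi-likelihood test), and shRNA replicate 4 was again the lowest of its group. In shRNA replicate 4 Meis2 was highest and these myosins were lowest within the group. The DLX and LHX factors of the interneuron lineage had lower means in the shRNA samples. Dlx5 went from 63.3 ± 13.1 to 41.4 ± 13.4 CPM (FDR = 0.112), Dlx2 from 60.0 ± 10.2 to 44.1 ± 14 CPM (FDR = 0.196) and Lhx6 from 232 ± 48.6 to 186 ± 64.7 CPM (FDR = 0.396). Pax6, a homeobox partner of MEIS2 in olfactory neurogenesis, had 1.6 to 3.26 CPM and 2.35 to 11.5 CPM, highest in shRNA replicate 4 (FDR = 0.0903). Pbxip1, whose product binds PBX proteins, had 13.3 to 29.8 CPM in the shNT samples and 18 to 26.8 CPM in shRNA replicates 1 to 3, against 143 CPM in replicate 4.

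**Figure D4:**
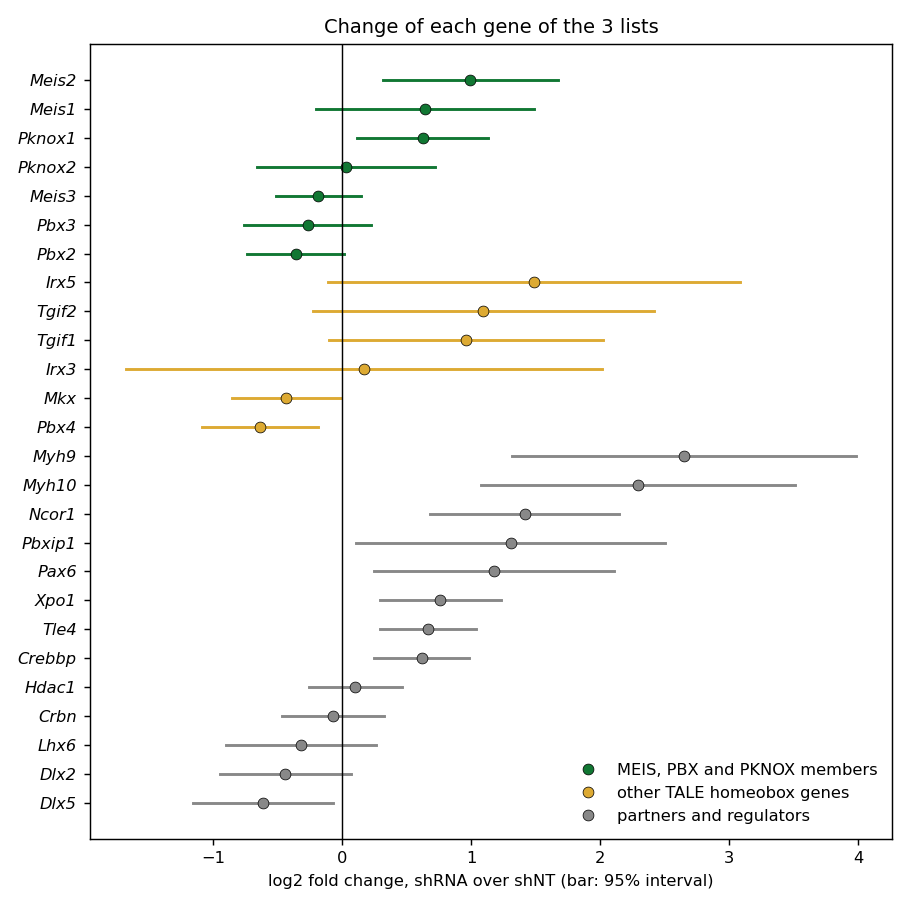
Log2 fold change, shRNA over shNT, with its 95% interval for the 7 members, the 6 other TALE genes tested and the 13 partners and regulators. The interval lies above 0 for Meis2 (0.31 to 1.67) and Pknox1 (0.12 to 1.13) among the members, and the furthest point is Myh9 at 2.65.

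By the measure fixed for likeness (Pearson's r of log2 CPM over the 9 samples, among 10942 genes averaging at least 5 CPM), the genes most like Meis2 were Cachd1 (r = 0.994), Dsel (0.989), Crim1 (0.986), Zfp26 (0.986) and Sbno2 (0.986). Such values were common, with 517 genes at 0.9 or above, and the points share their libraries and scaling. Cachd1 had 8.51 CPM on average in the shNT samples and 20.6 CPM in the shRNA samples (log2 fold change 1.27), Crim1 15.4 and 31.1 CPM (1.02) and Dsel 5.01 and 9.95 CPM (0.98). By the same measure Pknox1 was the member most like Meis2 (r = 0.898) and Pbx2 the least (r = -0.813).

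Markers of other cell types also differed in level between the samples, and some followed Meis2 while others did not. The 12 astrocyte markers were all higher on average in the shRNA samples, with summed levels of 1116 to 1592 CPM (shNT) and 1453 to 5774 CPM (shRNA). The 12 PV IN markers were all lower on average, with 9334 to 14323 CPM and 4478 to 10863 CPM. CA3 and CA2 pyramidal markers summed to 784 to 1631 CPM and 1697 to 2078 CPM (8 of 11 with a higher mean), and DG granule cell markers to 111 to 181 CPM and 210 to 247 CPM (7 of 8), neither with overlap between the groups. Endothelial and mural markers summed to a median of 225 CPM in the shNT samples (highest 402 CPM) and to a median of 158 CPM in the shRNA samples, where replicate 4 had 996 CPM and the others lay below the shNT median. Nuclear-retained noncoding RNAs summed to 1673 to 15051 CPM and 3645 to 19020 CPM, and shNT replicate 2, with the shNT maximum, had 8.31 CPM of Meis2. In the YTa32 names, shNT replicates 4 and 5 had the lowest Meis2 and the highest summed PV IN markers (13738 and 14323 CPM), and shRNA replicate 4 the reverse. The DG granule cell markers summed to 181, 146, 161, 111 and 144 CPM in shNT replicates 1 to 5, ranked as Meis2 was. In shRNA replicates 1 to 4 they summed to 213, 217, 210 and 247 CPM. Replicate 4 was highest for both, and the others were ranked differently. The part of these cell types in the Meis2 difference was not tested. Over the 9 samples the log2 level of Meis2 had a Pearson's r of 0.668 with the percent of reads outside exons. With the percent of reads outside exons added to the fit, the log2 fold change of Meis2 was 0.68 (FDR = 0.181, edgeR quasi-likelihood test). Without both shNT replicate 2 and shRNA replicate 4, where that share was highest within each group, it was 0.79 (FDR = 0.14).

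**Figure D5:**
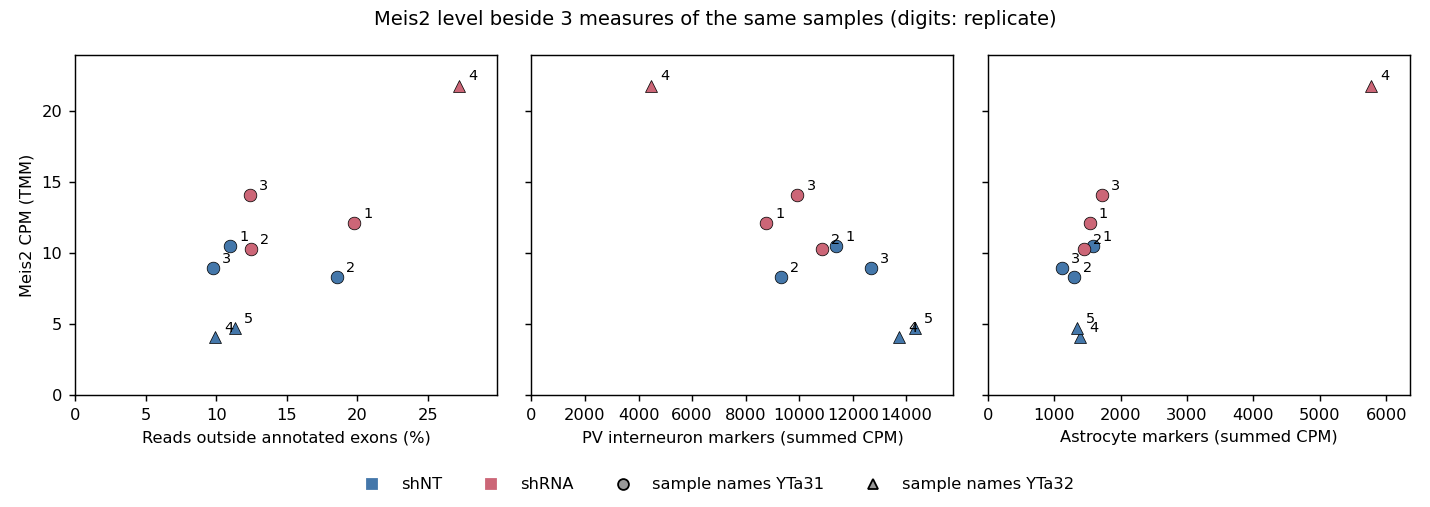
Meis2 CPM in each sample against the percent of reads outside annotated exons, the summed CPM of 12 PV IN markers and the summed CPM of 12 astrocyte markers, with digits for the replicate. shRNA replicate 4, with 21.8 CPM of Meis2, has the largest share outside exons (27.2%), the lowest PV IN markers (4478 CPM) and the highest astrocyte markers (5774 CPM).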

How the data were processed

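Tagged ribosomes were immunoprecipitated from CA3/CA2 and their RNA sequenced in 5 shNT and 4 shRNA samples. The authors mapped 50-base reads on mm9 transcripts using STAR, counted unique alignments per gene without regard to strand (HTSeq 0.6.0) and deposited the raw counts of each sample. Their annotation version is not given in the sources used here. Names, positions and exon lengths were taken from GENCODE for the same build, which named 37205 of the identifiers. Rows for reads outside exons, ambiguous reads and alignments at more than 1 place were kept out of library sizes.

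Genes reaching 1 CPM in any sample were kept. After TMM normalization the main test was edgeR's quasi-likelihood test (edgeR 4.0.16, R 4.3.3), with shRNA against shNT as its single contrast and Benjamini-Hochberg adjustment over all genes kept. limma 3.58.1 (voom) and DESeq2 1.42.0 served as alternatives, beside other edgeR tests, normalizations and filters, the replicate number or name set in the fit, the percent of reads outside exons in the fit, removal of length trends, and samples left out. Log2 levels and ratios used a prior count of 2. Single values were compared by exact permutation over samples. The fits were tested on simulated counts before use. Genes were named by rule: the members, genes of the listed partners and further TALE genes, cell type markers, and the 5 genes most like Meis2. Members and lists were chosen with earlier results of these data known. Of the listed genes, some are not reported here.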

Additional observations from a re-analysis of the deposited data

Results flagged for a closer look

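Of 92 groups of 4 or 5 values searched, 10 held a sample far from the rest of its group by Dixon's criterion, where chance gives about 1 in 20 (5%). One concerned a member: the log2 ratio of Meis2 to Pknox1 in shRNA replicate 2 was -0.0626, where the rest of that group had 0.471 to 0.516. In shRNA replicate 4, Tgif2 had 1.58 CPM (0.399 to 0.527 in the others), Irx3 1.26 CPM (0.0665 to 0.178), Irx5 1.94 CPM (0.213 to 0.475) and Pbxip1 143 CPM (18 to 26.8), while Dlx5 had 21.4 CPM (46.1 to 49.7). The mean log2 level of the astrocyte markers, relative to their mean in the shNT samples, was 2.33 in the same sample (0.166 to 0.521 in the others). In shNT replicate 2 the share of reads outside exons was 18.6% (9.76% to 11.3% in the other shNT samples) and the mean log2 level of the PV IN markers was -0.399 (0.008 to 0.168). Myh10 had 401 CPM in shNT replicate 1 (88.7 to 166 CPM in the others).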

How the results depend on the processing

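The 9 samples are pools and the calls over all genes move with the test and with single samples, which limits what a missed threshold shows for a member. Against 262 genes called higher and 2 lower, the counts were 1688 and 542 by the likelihood ratio test of edgeR, 1659 and 534 by its exact test, 1519 and 844 with DESeq2 and 2301 and 618 with limma voom. They were 0 and 0 with library size only, upper quartile scaling, the percent of reads outside exons in the fit or the YTa31 names only. They were 501 and 14 without the filter, 678 higher without shNT replicate 2 and shRNA replicate 4, and 8, 1 and 1 lower with a filter of 1 CPM in 4 samples, RLE scaling and the name set as a term. Leaving out 1 sample gave 0 to 1007 higher and 0 to 410 lower. The count of members called was 1, Meis2, with the likelihood ratio test, exact test, DESeq2 and voom, and 0 to 1 leaving out 1 sample (1 without shNT replicate 1). The log2 fold change of Meis2 ran from 0.36 (YTa31 names) to 1.16, with an FDR of 0.00554 to 0.48.

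The replicate numbers did not pair the samples (correlations of same-numbered deviations -0.267, -0.641, 0.486 and -0.181). With the replicate block, 29 genes were called higher and 0 lower, the value for Meis2 was 0.86 (log2, FDR = 0.398 by edgeR's quasi-likelihood test), and the ratios of Meis2 to Meis3, Pbx2 and Pbx3 differed by 1.085, 1.247 and 1.114 (exact permutation test within numbers, p = 0.125, the smallest that 4 pairs allow).

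Pknox2, with a log2 fold change of 0.03, turned to -0.006 with DESeq2 and with RLE scaling, -0.003 without the filter, -0.077 with the replicate block and -0.089 with the name set, reached 0.566 with the percent of reads outside exons in the fit, -0.112 and -0.44 with the exon and gene length trends removed, and ran from -0.158 to 0.221 leaving out 1 sample (negative without shNT replicate 2, 4 or 5 at -0.127, -0.007 and -0.133, and without shRNA replicate 2 or 3). The cause was not tested. With the YTa31 names only, the ratio of Meis2 differed by -0.178 relative to Meis1, 0.639 to Meis3, 0.541 to Pbx2 and 0.563 to Pbx3. Without shNT replicate 2 and shRNA replicate 4 it differed by 1.115 relative to Meis3 (exact permutation test, p = 0.114) and 1.128 to Pbx2 (p = 0.0571). With 1 sample left out it ran from 1.016 to 1.390 relative to Meis3, 1.037 to 1.615 to Pbx2 and 0.957 to 1.463 to Pbx3. Removing the exon length trend from the ratios was chosen after seeing the data and gave 0.497 relative to Meis3 and 0.002 to Pknox1. Removing length trends from the single genes took Pbx3 from -0.27 to -0.63 (exon length) and -0.72 (gene length). Meis1 gave no value with 1 CPM in 4 samples, which removes it. The median log2 fold change of all genes was 0.114 with TMM, 0.168 with library size only and 0.069 with RLE scaling.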

Other observations

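The remaining lists of cell type markers gave these summed levels, in the shNT and then the shRNA samples. Interneurons other than PV INs had 540 to 918 CPM and 373 to 725 CPM. The sum follows Sst, Npy and Cck, the genes with the most reads on this list, which had lower means. Of the 9 tested, 6 had a higher mean, and the median log2 fold change was 0.56. Reln (FDR = 0.0414) and Cnr1 (FDR = 0.0404, edgeR quasi-likelihood test) were the 2 called higher on this list, against 1.74% of all genes. Other lists held genes called higher too: 2 of 11 CA3 and CA2 pyramidal, 1 of 8 DG granule cell and 3 of 6 oligodendrocyte precursor markers. Oligodendrocyte markers summed to 784 to 2396 CPM and 1476 to 3047 CPM, and those of their precursors to 63.5 to 92.5 CPM and 101 to 128 CPM, the latter without overlap. Microglia markers had 50.7 to 120 CPM and 87 to 99.3 CPM. Markers of cells outside the hippocampus were also read. Choroid plexus markers had 3.33 to 6.62 CPM and 8.14 to 13.1 CPM (5 of 5 with a higher mean). Striatal projection neuron markers had 63.2 to 84.6 CPM and 81.8 to 141 CPM (5 of 7). Thalamus and habenula markers had 246 to 270 CPM and 214 to 253 CPM, a sum held mostly by Rora (215 against 162 CPM on average). Of these markers, 5 of 6 had a higher mean, with a median log2 fold change of 0.915. Over all genes, 57.9% had a positive log2 fold change. With the exon length trend removed, the log2 fold changes of the members were 0.42 for Meis2, 0.42 for Pknox1, 0.23 for Meis1, -0.08 for Meis3, -0.11 for Pknox2, -0.51 for Pbx2 and -0.63 for Pbx3.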
